A study of Drosophila melanogaster with 2 samples.

Results

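The 7 genes described here encode proteins that bind promoters or work with such proteins in Drosophila melanogaster: Trl, Adf1, row, Clamp, M1BP, Dref and pzg. They were taken by gene name from the Ensembl BDGP6 annotation, are 7 of its 13986 protein-coding genes, and each matched exactly 1 gene. Binding of CG10366, listed in RefSeq as an uncharacterized protein, was mapped by chromatin immunoprecipitation with sequencing (ChIP-seq). The strain carried an insertion that targets CG10366 and made it as a fusion to eGFP, and chromatin of whole embryos 0 to 24 h after laying was precipitated with an antibody against GFP. The 2 libraries are biological replicates 1 and 2 by their labels and form 1 group. The labels name neither the promoter that drives the fusion nor an untagged group, and whole embryos of this age mix all tissues and stages. Each library gave its own peak list, and a series-wide and a conservative list rest on both. Summits were assigned to a gene when they lay in its span or no more than 500 bp from where any of its transcripts begins.

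GAGA factor, the product of Trl, binds GA-rich DNA at promoters and helps keep them free of nucleosomes. Clamp binds longer GA repeats and also guides the dosage compensation complex to the male X chromosome. Dref binds the DNA replication-related element in promoters of growth and replication genes, M1BP binds the Motif 1 core promoter element, and Adf1 was first described at the alcohol dehydrogenase promoter. The zinc finger protein pzg (also called putzig or Z4) acts with Dref and Trf2 and with Chromator, and row is a zinc finger protein found with the woc and HP1c proteins. All but pzg and row are best known for contacting a DNA motif of their own.

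The stretches below show where CG10366 summits stood at the genes from 3L, 3R and 2L, with Clamp as the gene that had none. They are from the RefSeq copy of the dm6 assembly, on the strand of the gene and 5' to 3'. Stretches were ended at any annotated untranslated region, and where the summit itself lay in one, 30 bases are given. Capitals mark the longest run of A and T, except in Dref, where they mark the CGATA box read on the other strand, and in Clamp, where they mark the Motif 1 core GGTCACAC. Where the longest runs of a stretch are equal in length, as at the strongest Trl summit, only the first is marked.
Trl, strongest summit, in an intron (chr3L:14759448-14759568, minus strand): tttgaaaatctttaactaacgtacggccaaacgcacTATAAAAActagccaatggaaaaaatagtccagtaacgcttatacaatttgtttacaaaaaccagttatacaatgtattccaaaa
Trl, summit at a start site (chr3L:14757186-14757215, minus strand): aagagAATTTTccccgtaaccgttaaacat
Trl, intronic summit farthest downstream (chr3L:14756153-14756273, minus strand): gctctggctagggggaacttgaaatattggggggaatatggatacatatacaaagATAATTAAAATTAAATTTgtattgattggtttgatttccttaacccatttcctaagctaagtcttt
M1BP, upstream summit (chr3R:8731857-8732090, minus strand): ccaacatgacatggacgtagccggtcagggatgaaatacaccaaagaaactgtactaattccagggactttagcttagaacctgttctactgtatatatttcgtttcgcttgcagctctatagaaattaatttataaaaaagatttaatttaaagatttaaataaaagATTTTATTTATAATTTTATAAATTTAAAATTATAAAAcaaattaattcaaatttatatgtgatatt
Dref, upstream summit (chr2L:9967230-9967312, minus strand): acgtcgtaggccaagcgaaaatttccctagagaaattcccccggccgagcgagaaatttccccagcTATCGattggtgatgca
pzg, upstream summit (chr3L:21285907-21285936, plus strand): TAAATAATTAcgttatcgtaatgaacggca
Clamp, sequence just upstream of the start site, no summit (chr2L:22169144-22169263, minus strand): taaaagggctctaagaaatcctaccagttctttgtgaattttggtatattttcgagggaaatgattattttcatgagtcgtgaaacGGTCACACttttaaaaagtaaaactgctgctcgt

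CG10366 peaks stood at 6 of the 7 genes, and Clamp was the exception. In the series-wide list, Trl, row, M1BP, Dref and pzg had a passing summit within 500 bp of a start site, that is 5 of 7, where 19.4% of all protein-coding genes had one (2715 of 13986). A passing peak is one in the authors' thresholded list, which holds peaks with an IDR (irreproducible discovery rate, a measure of how poorly a peak's rank repeats between paired lists) of at most 0.01. With summits anywhere in the span counted too, Adf1 joined them, which made 6 of 7 beside 24.8% of all protein-coding genes. The same 5 genes were marked at start sites in the list of replicate 1 alone (18.4% of all genes) and in that of replicate 2 alone (14.8%). The same 6 were marked in span or at a start site in both, beside 23.9% of all genes in replicate 1 and 19.3% in replicate 2. A ranked candidate at a start site was present at 6 of the 7 genes in the series-wide list, beside 5995 of all 13986 protein-coding genes. Of those 5995 genes, 45.3% had a passing summit there, as did all of the 6 but Adf1. The genes were chosen with earlier results of these data known and are 7 in number, so these shares are a description and were not tested.

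**Figure D1:**
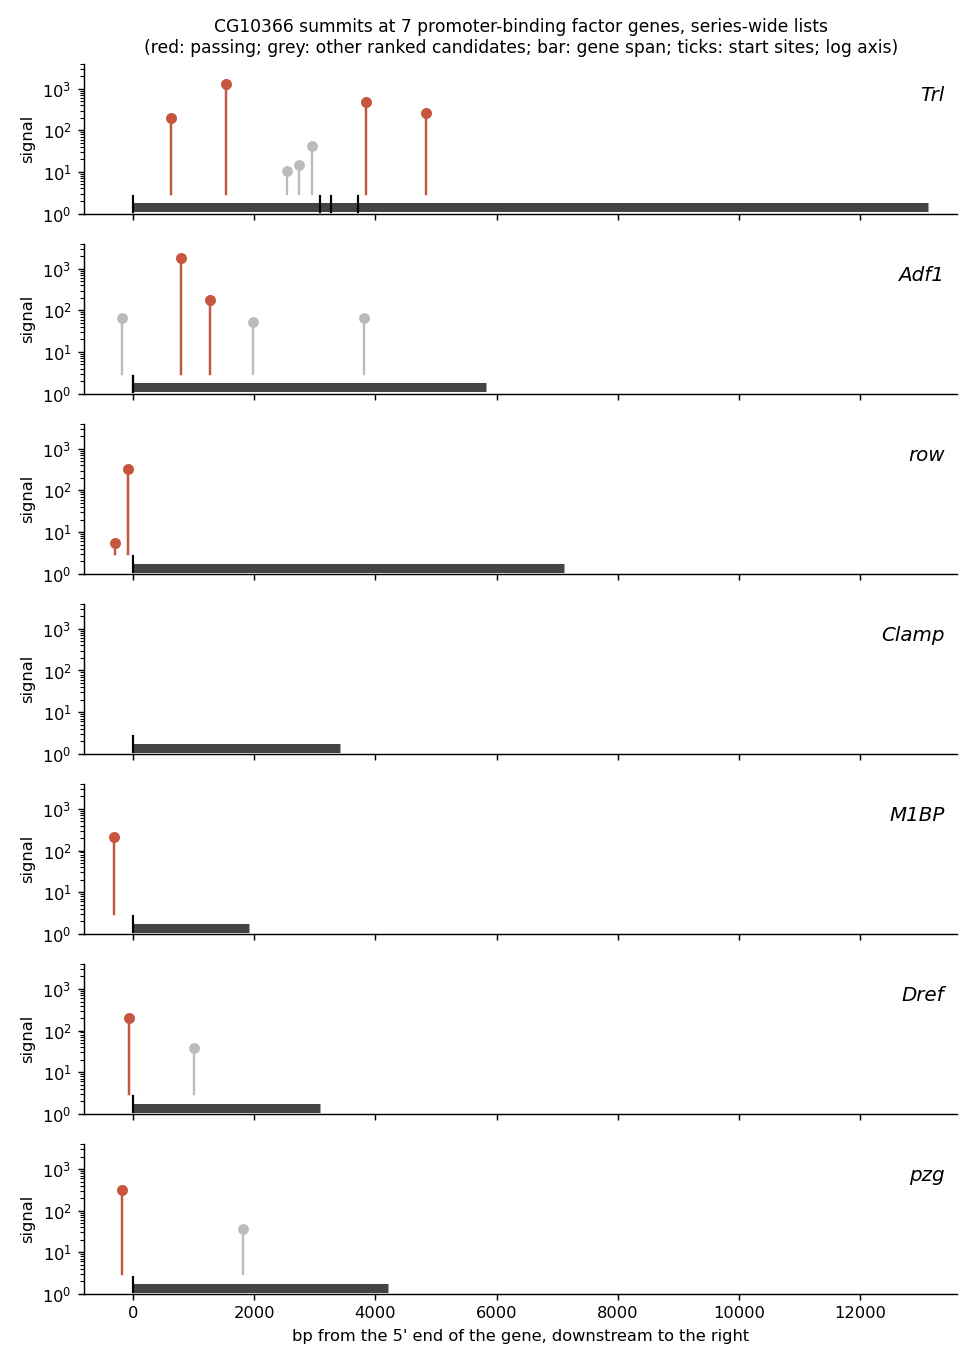
Signal of each summit (vertical axis, log scale, authors' signal value) against distance from the 5' end of the gene in bp, for the series-wide lists. Red summits passed and grey ones are the other ranked candidates; the strongest passing summits, at 1791 in Adf1 and 1289 in Trl, lie inside the genes, those of row, M1BP, Dref and pzg lie upstream, and Clamp is empty.

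The strongest peak at any of these genes lay in an intron of Adf1. Its signal was 1791 in the series-wide list, rank 19 of 5153 peaks (2R, 6662886 to 6663222, dm6). Replicate 1 gave 1186, rank 14 of 4876, and replicate 2 gave 645, rank 30 of 3378. Both libraries therefore placed it in the top 0.888% of their lists or higher, with summits 4 bp apart. The summit stood 785 bp downstream of the nearest Adf1 start site, so it did not count as a promoter summit at 500 bp. A further passing summit, 1266 bp downstream, fell in an exon of lncRNA:CR45128, which lies within Adf1. Its signal was 179 in the series-wide list, 153 in replicate 1 (top 23.2%) and 156 in replicate 2 (top 18.1%).

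The Adf1 promoter itself was marginal. A candidate 176 bp upstream of Adf1, in the 5' UTR of the divergent gene Dpit47, had a signal of 66.2 and an IDR of 0.0902 in the series-wide ranked list. It had an IDR of 0.00972 in the conservative ranking and passed there, which brought the count at start sites to 6 of 7 beside 19.2% of all genes in the conservative list. In the replicates alone no summit passed there, and the candidates stood at different positions. Replicate 1 had one 147 bp upstream, with a signal of 48.9 and an IDR of 0.671. Replicate 2 had one 233 bp upstream, with a signal of 32.9 and an IDR of 0.687.

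Trl, the GAGA factor gene, held 4 passing summits over its span of 13121 bp, all of them within the gene. At least 4 were found at 1.66% of all protein-coding genes (232 of 13986), and the median gene with any had 1. Of 610 genes whose span was within a factor of 0.8 of that of Trl, shorter or longer, 3.77% held at least 4. The strongest Trl summit lay 1541 bp from the nearest start site, in an intron (3L, 14759333 to 14759684). It had a signal of 1289 in the series-wide list (rank 46), 792 in replicate 1 (rank 44) and 498 in replicate 2 (rank 53), so both libraries ranked it near the top.

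The Trl summit that counted as a promoter summit stood 135 bp downstream of the innermost of the gene's 4 start sites, in a 5' UTR annotated for Trl and for the overlapping gene CG42507 (14757092 to 14757296). Its signal was 476 in the series-wide list, 281 in replicate 1 and 190 in replicate 2, in the top 7.78%, 8.18% and 12.6% of these lists. The remaining summits were intronic, 633 bp and 1123 bp from a start site. The one at 633 bp had signals of 203, 131 and 77.2, and the one at 1123 bp had 260, 165 and 92.4, in the series-wide list, replicate 1 and replicate 2. Both passed in each library. No passing summit stood within 500 bp of any other Trl start site. The series-wide ranking had candidates 126 bp and 339 bp upstream of an inner one, with signals of 42.2 and 14.6 and an IDR of 0.763 for both. At the outermost start site, which overlaps Tsen34, the conservative ranking had 3 candidates with IDR values from 0.68 to 0.848. Replicate 2 ranked candidates 75 bp and 442 bp away, with signals of 24.6 and 15.4 and IDR values of 0.604 and 0.843, and replicate 1 ranked none.

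The gene row carried its peak just upstream of its single start site. The summit was at -74 bp (2R, 15213637 to 15213787; negative positions are upstream), with a signal of 330 in the series-wide list, 195 in replicate 1 and 136 in replicate 2. That was the top 14.7% of the series-wide list, the top 15.1% of replicate 1 and the top 23.1% of replicate 2, so it stood lower in replicate 2. A weak summit at -299 bp also passed, with a signal of 5.50 (rank 5093 of 5153). Its IDR in the series-wide ranking was 1e-05, and its interval (15213768 to 15214097) overlapped that of the stronger peak. Replicate 1 had the weak summit at 8.59, replicate 2 had no separate peak there, and in the conservative ranking its IDR was 0.73. Only 2.52% of series-wide passing peaks had a signal of at most 10.

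M1BP, Dref and pzg each had 1 passing peak, and each shared it with a neighbouring gene that starts in the other direction. In the series-wide list, the M1BP summit lay 309 bp upstream of M1BP and 84 bp upstream of CG8202. The Dref summit lay 61 bp upstream of Dref and 23 bp upstream of RpL13, which encodes a ribosomal protein of the large subunit. The pzg summit lay 177 bp upstream of pzg and 40 bp past the start site of CG12974, in its 5' UTR. In replicate 2 the pzg summit lay 119 bp upstream of pzg, outside any gene, and the M1BP summit 131 bp upstream of M1BP. Sharing of a summit is common in the series-wide list. For 57.8% of the 2715 genes marked at a start site, the strongest summit there was also within 500 bp of another protein-coding start site. With a summit this close to both genes, the peak lists do not tell which of the genes it belongs to.

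The pzg peak (3L, 21285863 to 21285981) was the strongest of these, with a signal of 312 in the series-wide list, 224 in replicate 1 and 94.6 in replicate 2. It stood higher in replicate 1, at the top 12%, than in replicate 2, at the top 41.5%. The M1BP peak (3R, 8731975 to 8732110) had a signal of 206 in the series-wide list and 141 in replicate 1, the top 26.1%. It did not pass at that position in replicate 2, where a candidate 331 bp upstream of M1BP had a signal of 35.6 and an IDR of 0.284. The passing M1BP peak of replicate 2 (8731679 to 8731978) had its summit 131 bp upstream, 175 bp from that of replicate 1, with a signal of 61.1, the top 76.3%. M1BP was thus marked in both libraries, but at different summits. The Dref peak (2L, 9967125 to 9967454) had a signal of 201 in the series-wide list, 84.0 in replicate 1 and 100 in replicate 2. Here the order was the other way, the top 51.3% in replicate 1 and the top 38.5% in replicate 2. The pzg and Dref peaks passed in each library.

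**Figure D2:**
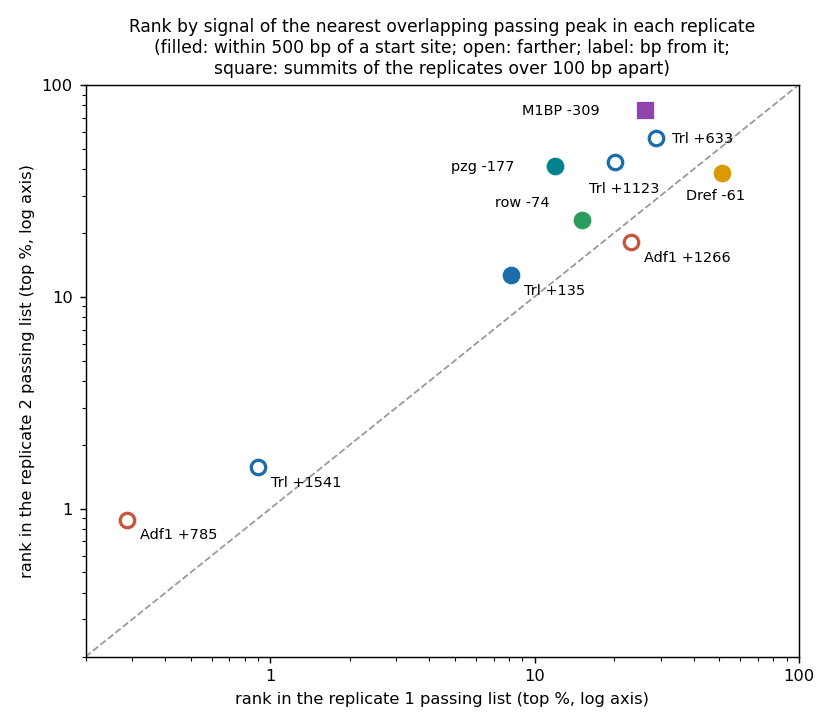
Rank of each peak in the passing list of replicate 1 (horizontal) and of the nearest overlapping one in that of replicate 2 (vertical), each as the top percent by signal on a log axis; filled points lie within 500 bp of a start site, open ones farther, the dashed line marks equal rank, the square marks M1BP, whose summits in the libraries lie 175 bp apart and are not the same peak, and the weak row summit at -299 bp is left out because replicate 2 has no separate peak for it. Adf1 at 785 bp and Trl at 1541 bp stay near the top in both libraries, and pzg (12 and 41.5) lies well above the line.

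By the strongest start-site signal, the genes ordered as Trl (476), row (330), pzg (312), M1BP (206) and Dref (201). Trl was 351st of the 2715 protein-coding genes marked at a start site, row 612th, pzg 648th, M1BP 1139th and Dref 1179th. The median of these 5 genes was 312 and that of all 2715 was 172.5. The order below Trl did not hold in the single libraries. In replicate 1, pzg (224) stood above row (195). In replicate 2, Dref (100) stood above both pzg (94.6) and M1BP (61.1), and the M1BP value there belongs to a different summit. Counting summits anywhere in the span, Adf1 was 26th and Trl 62nd of 3466 marked genes.

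**Figure D3:**
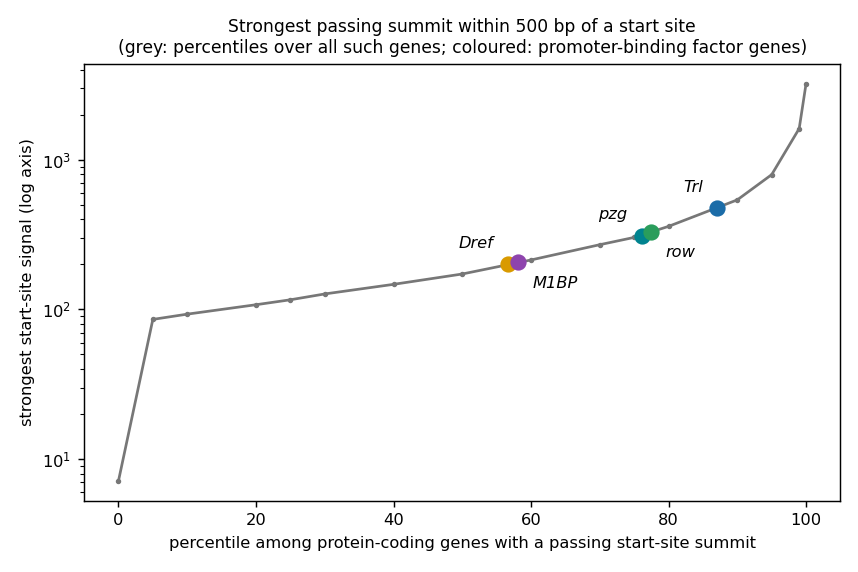
Strongest passing start-site signal (log axis) against percentile among the 2715 protein-coding genes that have one; the grey line joins percentiles of all such genes. The coloured points run from Dref at 201 to Trl at 476, all above the median of 172.5; Adf1 and Clamp have no such summit and are not drawn.

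Clamp had no passing summit in its span or at its start site in any of the 4 lists. It had no candidate at all in the series-wide ranked list or in that of replicate 1. Replicate 2 alone ranked 4 candidates in the gene, with signals from 15.7 to 23.5 and IDR values from 0.565 to 0.843. The one nearest the start site, 12 bp downstream, had a signal of 23.5 and rank 16805 of 37922. The surroundings were as empty: no passing summit lay within 50 kb of Clamp, and the nearest was 215873 bp away. The other 6 genes had 4 to 11 passing summits within 50 kb, the median over protein-coding genes on the chromosome arms was 5, and 7.45% of them had none. These counts include each gene's own passing summits, so a marked gene could not have been without any. Ranked candidates of any quality were few as well, 7 within 50 kb beside a median of 29 in the series-wide list, 13 beside 48 in replicate 1 and 22 beside 35 in replicate 2. The lists hold no read counts, so the coverage around Clamp is not known.

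Position relative to the start site differed among the marked genes. The strongest start-site summit was upstream in row, M1BP, Dref and pzg and downstream in Trl. Upstream summits were the rule over all marked genes (88.4% of 2715). The strongest start-site peak was narrow at 4 genes, with widths of 151 bp at row, 136 bp at M1BP, 119 bp at pzg and 205 bp at Trl. Of the other Trl peaks, the one at 1123 bp was 123 bp wide. Those at 1541 bp and 633 bp were 352 bp and 330 bp wide, and the weak row peak at -299 bp was 330 bp wide. The median over the series-wide passing list was 330 bp, and 19.1% of its peaks were no wider than 205 bp. Summit positions of the 2 libraries differed by 4 to 8 bp at the strongest Adf1 and Trl summits, the Trl start-site summit and the Dref summit, by 32 bp at row and by 63 bp at pzg. The different M1BP summits were 175 bp apart, beside a median of 16 bp and a 90th percentile of 57 bp over 2985 peaks found in both libraries. In replicate 2 the peaks at row, M1BP, Dref and pzg all had the width most common in that list, 300 bp.

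The letters under the strongest peak were rich in A and T at 5 of the 6 genes. In the 101 bp around the strongest summit, GC content was 29.7% in Adf1, 31.7% at row, 32.7% in Trl, 32.7% at M1BP and 33.7% at pzg. The mean over 5140 passing summits was 34.5% (SD 9.71), so these genes sit close to the typical passing summit. Dref was apart from them with 46.5%, above 86.1% of passing summits and near the mean of 46.0% (SD 10.3) at 28551 ranked summits outside the passing list. Further passing summits of Trl, Adf1 and row ran from 30.7% to 46.5%, the highest at the Adf1 summit 1266 bp downstream. At M1BP the lowest GC content was not at the summit but 100 bp nearer the gene, where a window of 51 bp held 3.9%. The stretch printed above holds there a run of 37 letters of A and T. The replicate 2 summit of M1BP lay on that side, 131 bp upstream of the start site.

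**Figure D4:**
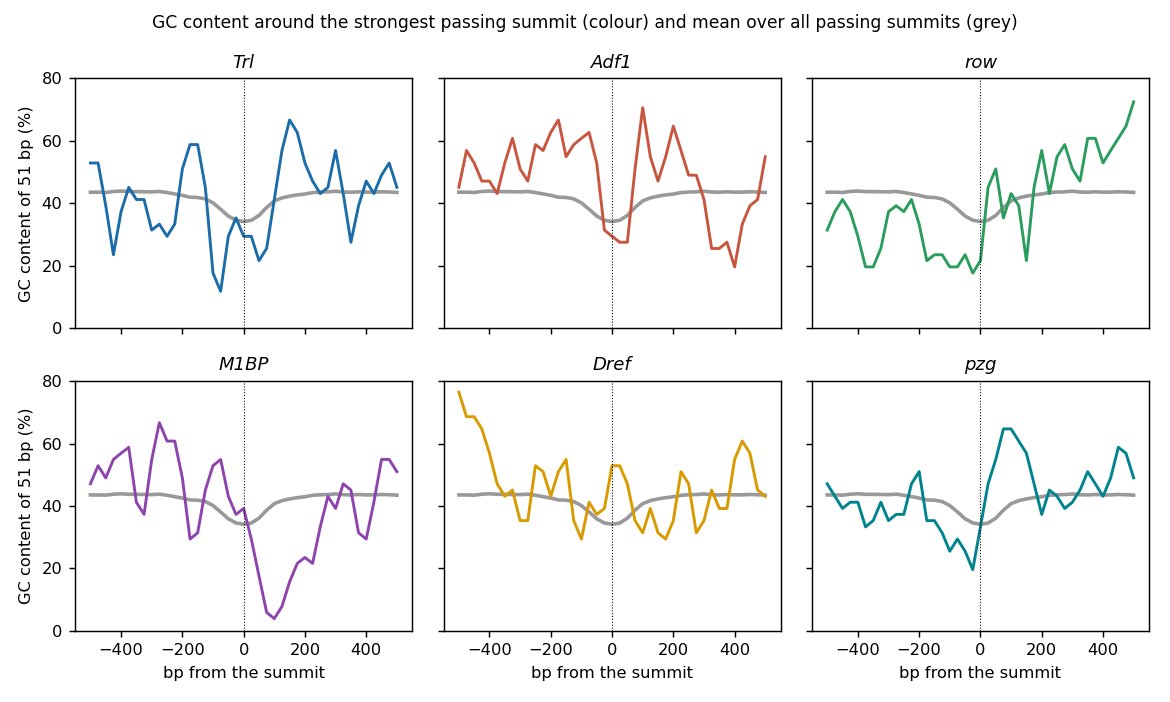
GC content (percent, windows of 51 bp) against distance in bp from the strongest passing summit, with downstream of the gene to the right; colour is the gene and grey the mean over all passing summits, taken along the reference strand. Adf1, Trl, row and pzg dip at or beside the summit, M1BP falls to 3.9% at 100 bp, and Dref has no dip at its summit.

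The marked summits were searched on both strands for the motifs of GAGA factor, Dref and M1BP, and for an A run and E-boxes, which are not motifs of these 7 factors; no Adf1 motif was searched. Within 100 bp of the strongest summit, none of 6 genes held GAGAG, the GAGA element core, which 22.0% of all 5140 passing summits held. None held TATCGATA, the DNA replication-related element (3.35% of passing summits), or GGTCACAC, the Motif 1 core (2.20%). The shorter box CGATA, which is contained in TATCGATA, was present at row, Dref and pzg, 3 of 6, beside 27.5%. The run AAAAAA was present at Trl, Adf1, row, M1BP and Dref, 5 of 6, beside 47.5%. The E-box CAGCTG was present at M1BP alone (8.81%), and CATCTG at none (6.50%). Outside the strongest summits, CAGCTG was present at the Adf1 summit 1266 bp downstream and CATCTG at the Trl summit at 633 bp.

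The start sites gave another picture for Clamp. Within 100 bp of its start site, Clamp held GGTCACAC, found at 6.76% of 13945 protein-coding start sites, and also GAGAG (22.5%). No other gene of the group held GGTCACAC at the 5' end of its gene record, and GAGAG was present there at Adf1 and Dref as well. The other start sites of Trl and the rest of the genes were not searched. These matches describe letters in a window and say nothing of whether a factor binds there.

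Genes nearest to these in rank were looked up over the 2 libraries, by the top percent of the strongest start-site candidate in each replicate's ranked list among 5163 protein-coding genes with one in both. For Adf1, M1BP, Dref and pzg the nearest gene was the one that shares its candidate in each replicate, Dpit47, CG8202, RpL13 and CG12974, at a distance of 0. The M1BP candidates of the replicates were at different summits, as were those of Adf1, which passed in neither replicate. For Trl (top 0.656% and 1.16%) the nearest gene was Kal1 (0.672% and 1.1%), and for row (1.21% and 2.12%) it was Snx21 (1.14% and 2.14%). Clamp had no start-site candidate in replicate 1 and was not compared.

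Of 15 genes whose products work with these factors, 6 had a passing start-site summit in the series-wide list, beside 19.4% of all protein-coding genes. The highest was Chro, which encodes Chromator, the partner of pzg: signal 2066 and rank 10, with 1267 in replicate 1 and 806 in replicate 2, at a summit shared with Ssl1. HP1b, a heterochromatin protein 1 gene, had 199.8 at a summit shared with CG7246, with 112.9 in replicate 1 and 86.7 in replicate 2. The gene gfzf, whose product acts with M1BP, had 170.8 at a summit shared with Sas-4, with 106.9 in replicate 1 and 66.1 in replicate 2. The BTB protein genes lolal and psq had 149.2 and 116.4, and both passed in each library. The row partner gene woc had 93.3, with 65.5 in replicate 1 and no passing peak in replicate 2.

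No passing start-site summit was found at HP1c, Ubqn, Trf2, msl-2 and mod(mdg4), nor at the nucleosome remodelling genes E(bx), Iswi, Nurf-38 and Caf1-55. Among these, Trf2 held 1 passing summit and mod(mdg4) 2 inside their spans. The gene psq, which did have a start-site summit, held 8 in all over 59393 bp. The list was written with earlier results of these data known, Chro among them, and its count was not tested.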

How the data were processed

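Peak lists of 2 ChIP-seq libraries, replicates 1 and 2 of 1 group, were used as deposited; reads, signal tracks and controls were not analysed here. Per the labels, coordinates are dm6 and chromatin was sonicated to 200 to 800 bp. For the aligner and the peak caller, no name is given in the sources used here. The deposited signal of each peak is the authors' own value and was compared within a list or as a rank. The ranked lists give the −log10 of the global IDR computed by the authors; peaks in the thresholded lists had at least 2. The ranked lists over both libraries hold 4 columns of signals tied to no library, which were not used. Depth is unknown, so no interval is given.

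Summits were placed with Ensembl release 115, without transposable elements, using Python 3.11.15 and pandas 2.3.3, and bases were read from RefSeq's dm6 by arm name. The assignment of summits was checked on made-up genes. No test was made: 1 group and 7 chosen genes allow none. The genes, the partner list and the motifs were chosen with earlier results of these data known. Named beside the 7 genes were genes sharing a summit, partner genes with a start-site summit (at most 6 with values) and the nearest gene in rank; partner genes without such a summit, CG42507, Tsen34 and lncRNA:CR45128 were named after their values were seen. Runs of A and T, GC profiles, widths, summit shifts and counts within 50 kb were added after seeing the data.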

Additional observations from a re-analysis of the deposited data

How the results depend on the processing

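The count of genes with a start-site summit, 5 of 7, ranged from 4 to 6 under the conservative list, an IDR of 0.001, windows of 250 and 1000 bp, and the 5' end of the gene record alone. It was 5 without replicate 1 and 5 without replicate 2. When the peak interval had to cover a start site it was 1, Dref. The 6 of 7 with summits in the span as well was 6 in each of 5 alternatives. The partner count of 6 ranged from 5 to 7. Shares over all protein-coding genes were computed only for the start-site counts in the conservative list and for each replicate alone. For the other settings they were not, so those counts have no share to be read against. The number of summits per gene stayed within 1.5 times in 33 of 35 alternatives; row had 1 in place of 2 in the conservative list and without replicate 1. The top percent of the strongest start-site summit shifted by more than 1 SD of the 2 replicates' own values in 6 of 29 alternatives; 5 of these use 1 replicate's list, which also enters that SD, so they say little more than that the replicates differ. For M1BP the replicates' values belong to different summits. With windows of 200 bp to either side, GAGAG was found at 2 of 6 genes, beside 43.3% of all passing summits. With windows of 50 bp, CAGCTG was found at 0 (3.52%) and AAAAAA at 3 (27.2%). The peak lists hold no depths, and 2 libraries limit each value to a pair. No paired analysis was possible because there is 1 group.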

Other observations

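Candidates that did not pass were scattered over these genes. In the series-wide ranked list, Trl had 3, with signals of 10.3, 14.6 and 42.2, and Adf1 had 2 deeper in the gene, at 1977 bp (signal 52.5) and 3812 bp (67.3) from its start. The one at 3812 bp had an IDR of 0.443 in the series-wide ranking and 0.0178 in the conservative one. Dref and pzg each had 1 in coding sequence, at 1008 bp (signal 37.1) and 1817 bp (36.8), with an IDR of 0.763 for both.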
